A study of Mus musculus with 56 samples.

Results

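The Kelch-like (Klhl) and Kelch repeat and BTB domain (Kbtbd) genes were followed over the day in gastrocnemius, the large calf muscle, of mice fed in the light or in the dark. Members were every gene of the deposited table whose symbol is Klhl or Kbtbd followed by a number. They came to 46 of 19072 genes, 37 Klhl and 9 Kbtbd. Members were selected on the symbol alone, no measured value, and Klhl31, Klhl33, Klhl38, Klhl40 and Klhl41 were set apart as the muscle members, leaving 41 others. The family was proposed with its 24 h expression in these libraries known, so it was in effect chosen by those values. Of the 46, 40 averaged at least 1 CPM (reads per 1e6 reads of the library) and were tested, 5 muscle members and 35 others, among 12024 genes tested in all. All mice were 9-week-old female C57BL/6J mice with no engineered allele named. Every mouse had 7 days of free feeding in 12 h light and 12 h dark and then 7 days of restricted feeding. Daytime-restricted feeding (DRF) gave food in the light phase, and nighttime-restricted feeding (NRF), the study's reference, gave it in the dark phase. Each regimen was sampled with 4 libraries at each of zeitgeber times (ZT) 0, 4, 8, 12, 16, 20 and 24, counted in hours from lights on, which made 56 libraries. Hence ZT0 and ZT24 stood at the end of the fast in DRF and at the end of feeding in NRF, and ZT12 stood at the opposite points. Within a regimen, clock time and time since the meal cannot be told apart.

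Kelch-like proteins carry a BTB domain that binds the scaffold cullin 3 (CUL3) and a Kelch propeller that holds a substrate, so each member sends its own targets to ubiquitination by a CUL3 ligase. In skeletal muscle the family is known for KLHL40, KLHL41 and KBTBD13, whose loss or mutation in humans causes nemaline myopathy, a disease of the thin filament. KLHL40 and KLHL41 keep nebulin and leiomodin-3 stable rather than destroying them, and Klhl31 loss in mice disturbs sarcomeres.

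Promoters of the family were searched for the site of MEF2, a transcription factor of muscle genes, on both strands from 250 bases before to 50 bases after each annotated start. The search covered the 38 members with an entry in the RefSeq promoter table of GRCm38.p6. These members have 50 promoters in the table. The MEF2 site stood in 3 of the 50, those of Klhl41, Kbtbd12 and Klhl33, against 0.557% of all 32851 promoters. These promoters are shown because they carry the site, which is in capitals. They belong to 2 of the muscle members and to Kbtbd12, whose level fell as that of slow-fibre genes rose. The site began 63 bases before the start in Klhl41, 91 in Kbtbd12 and 50 in Klhl33.
Klhl41, chr2:69669870-69670169, plus strand: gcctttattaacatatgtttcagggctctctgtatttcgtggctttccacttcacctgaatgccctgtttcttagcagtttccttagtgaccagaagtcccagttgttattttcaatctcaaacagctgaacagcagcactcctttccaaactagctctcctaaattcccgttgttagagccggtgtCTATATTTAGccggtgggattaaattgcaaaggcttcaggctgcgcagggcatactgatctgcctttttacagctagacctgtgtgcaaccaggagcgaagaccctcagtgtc
Kbtbd12, chr6:88627380-88627679, minus strand: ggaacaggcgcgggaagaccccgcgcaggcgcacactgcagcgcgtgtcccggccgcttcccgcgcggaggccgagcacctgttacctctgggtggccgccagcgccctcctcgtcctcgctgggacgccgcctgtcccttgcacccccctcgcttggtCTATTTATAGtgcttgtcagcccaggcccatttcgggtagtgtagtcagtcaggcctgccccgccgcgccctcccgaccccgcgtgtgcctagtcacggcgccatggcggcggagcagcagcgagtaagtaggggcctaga
Klhl33, chr14:50897434-50897733, minus strand: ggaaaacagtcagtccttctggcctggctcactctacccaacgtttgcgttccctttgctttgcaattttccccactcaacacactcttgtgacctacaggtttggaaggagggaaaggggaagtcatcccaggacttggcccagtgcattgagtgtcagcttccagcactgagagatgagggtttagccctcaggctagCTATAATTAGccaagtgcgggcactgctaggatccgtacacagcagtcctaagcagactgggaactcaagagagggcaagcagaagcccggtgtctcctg
The clock element CACGTG was in 4 of the 50, of Klhl20, Klhl22 and Klhl28, against 7.15% of all promoters, and TAGGTCA was in 2, of Klhl23 and Klhl33, against 2.61%. TTANGTAA was in 2, of Kbtbd7 and Klhl9, against 2.32%, and GTAAACA, a site of FoxO factors, was in none, against 3.65%. These motifs were counted separately, a match is a description of letters, and Klhl38 and Klhl30 were not searched.

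The muscle members stood among the highest of the family. Klhl41 had the highest level per length, 265 CPM per kilobase on average over the 56 libraries, with a range of 201 to 308. Klhl31 followed at 70.1, Klhl40 at 46.8, Klhl21 at 42.8, Klhl33 at 39.99, Klhl30 at 25.7, Klhl38 at 24.7 and Klhl24 at 20.1 CPM per kilobase, so the muscle members held ranks 1, 2, 3, 5 and 7. Klhl21, which with Klhl9 and Klhl13 acts on Aurora B in dividing cells, and Klhl30 were the only others among the top 7. The ranges of neighbouring members over the libraries overlapped from Klhl31 down the order, but those of Klhl41 and Klhl31 did not. At 265 CPM per kilobase, Klhl41 was above 99.1% of the genes tested, and at 24.7 Klhl38 was above 88.5%. The lowest tested member was Kbtbd11, at 0.328 CPM per kilobase and above 4.43% of genes. Because the muscle members were set apart with earlier results of these data known, these levels are a description and were not tested. In whole tissue, fewer cells of a type and less RNA per cell cannot be told apart.

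**Figure D1:**
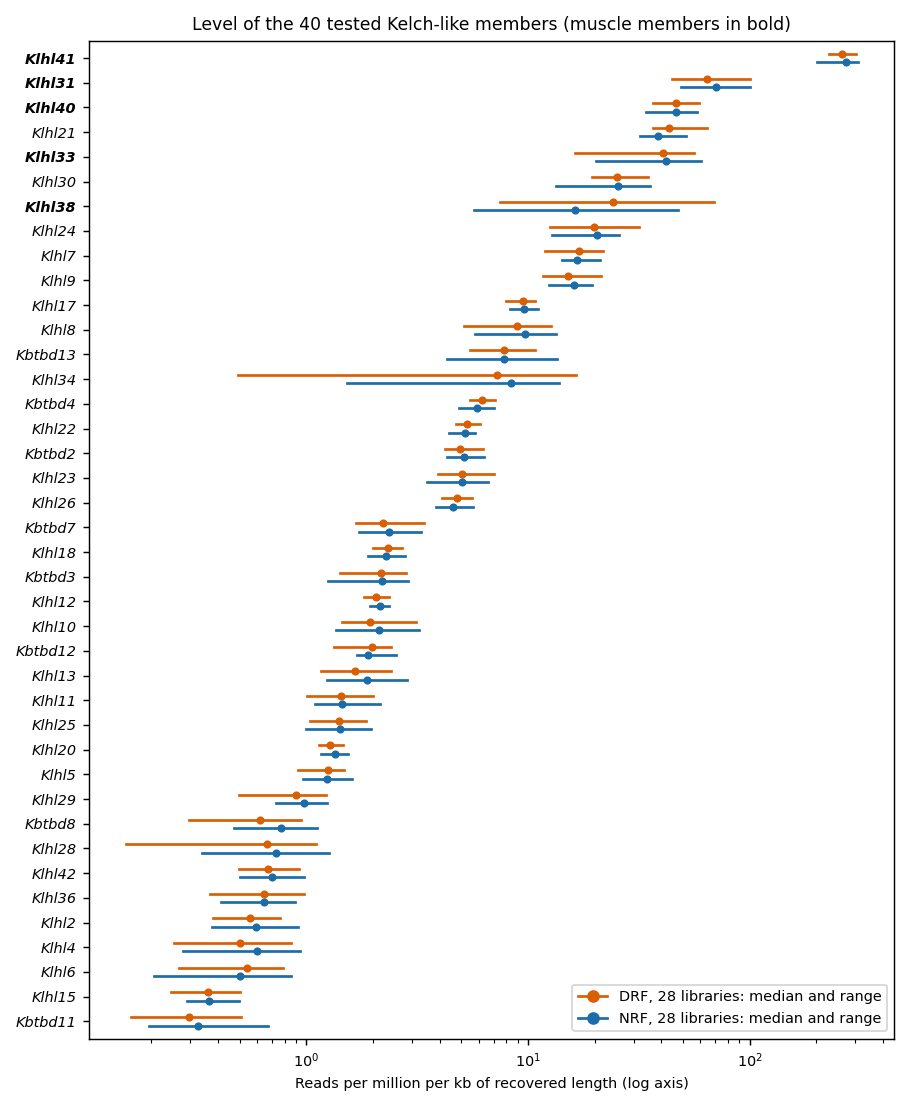
Level per length of the 40 tested members in CPM per kilobase on a log axis, as the median (point) and range (line) over 28 libraries of DRF (upper line of each pair) and 28 of NRF (lower line), with the muscle members in bold. Klhl41 stands highest, and Klhl34 and Klhl38 have the widest ranges on this axis.

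The 6 members not tested were low. Klhl3, which directs WNK kinases to degradation in the kidney, averaged 0.490 CPM, and Klhl32, Klhl35 and Kbtbd6 were above 0 in 38, 35 and 35 of 56 libraries. Klhl14 was above 0 in 8 libraries and Klhl1 in none. Values were often not whole read numbers, as when reads are split between genes, for Klhl41, with 10.7% whole, the neighbours Klhl10 and Klhl11, with 5.36% and 3.57%, and Kbtbd7, with 46.4%, so the levels of these 4 are uncertain. Strand-specific counting is not named in the sources used here, so reads of overlapping antisense genes cannot be told apart from those of members.

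The libraries carried the marks of fast muscle: the fast-fibre genes Myh4 and Ckm averaged 56800 and 22790 CPM, and the slow myosin Myh7 averaged 686 CPM. No fibre marker was at 0 throughout the 56 libraries. Each library held 28172967 to 36183381 recovered reads. The 6 genes called slow-fibre here were Myh7, Tnnt1, Tnni1, Tnnc1, Myl3 and Myh2. Of these, Myh2 had the highest mean, 2826 CPM, and encodes the myosin of fast oxidative (type IIA) fibres. The set therefore marks slow and oxidative fibres together and not slow fibres alone. Its sum varied strongly between libraries of one group and ran from 365 to 8924 CPM over DRF and 528 to 7960 CPM over NRF. None of the 6 passed any comparison. No 2 libraries of the same group were alike within sampling noise.

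Klhl38 had the largest change in the family. It is a muscle-enriched member on chromosome 15 (gene 268807, GRCm38.p6, 58314573 to 58324169). It had 108.7, 99.1, 92.3 and 46.6 CPM at ZT0 and 152.4, 79.8, 126.9 and 143 CPM at ZT24 in DRF, at the end of the fast. At the end of feeding in DRF, at ZT12, it had 16.5, 35.04, 26.2 and 19.0 CPM. Every library at the end of the DRF fast was above every library at the end of DRF feeding.
In NRF, Klhl38 had 36.9, 59.9, 39.2 and 25.7 CPM at the end of the fast (ZT12). At the end of NRF feeding it had 24.03, 26.5, 19.0 and 22.7 CPM at ZT0 and 73.1, 31.2, 24.6 and 22.2 CPM at ZT24. The NRF groups overlapped through the ZT24 library at 73.1 CPM. The fast effect, the end of the fast minus the end of feeding on the log2(CPM + 1) scale, was 2.07 ± 0.27 (SE; limma, adjusted p = 2.8e-07) in DRF and 0.47 ± 0.27 (adjusted p = 0.340) in NRF, and the difference between them was 1.60 ± 0.39 (adjusted p = 0.00218). It passed in all 9 alternatives and in all 56 fits without 1 library, with values of 1.41 to 1.81 on the log2(CPM) scales and 0.40 on log2 of the deposited score, which is another unit.

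Over 24 h, a cosine fitted to Klhl38 had a peak-to-trough of 2.14 ± 0.35 log2 in DRF, with its peak at ZT21.1 (adjusted p = 1.6e-05). In NRF the peak-to-trough was 0.09 (adjusted p = 0.985), although the NRF group at ZT20 averaged 71.9 ± 28.3 CPM (SD, n = 4) against a lowest NRF group of 23.0 ± 3.13 CPM at ZT0. That ZT20 group held 70.5, 76.0 and 105.1 CPM in 3 libraries and 36.2 CPM in the other. The highest group mean was 5.19 times the lowest in DRF and 3.12 times in NRF. The 24 h patterns differed between regimens (adjusted p = 0.00672). Averaged over the day, Klhl38 was higher in DRF by 0.48 ± 0.12 log2 (adjusted p = 0.00849), with 16.5, 53.7 and 152.4 CPM as the lowest, median and highest of 28 DRF libraries and 12.7, 36.0 and 105.1 CPM in 28 NRF libraries. By time, DRF exceeded NRF by 1.81 log2 at ZT0 (adjusted p = 8.2e-04), 1.47 at ZT16 (adjusted p = 0.0094) and 1.83 at ZT24 (adjusted p = 2.6e-04).

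Among all genes tested, the one whose log2 values ran most like those of Klhl38 was Fbxo32, named after its values were seen. It encodes a muscle ubiquitin ligase adaptor of another class, known for its rise in atrophy. Pearson's r was 0.895 and Spearman's rho 0.823 over the 56 libraries, 0.882 without the 2 libraries farthest from the median of Klhl38, and 0.891 after each group's mean was taken out. It was 0.971 within DRF and 0.734 within NRF. The points share libraries, and the pair was picked as the highest, so no test was made. Fbxo32 averaged 680 ± 218 CPM at ZT0 and 900 ± 270 CPM at ZT24 in DRF, against 120 ± 30.8 CPM at ZT12 (SD, n = 4 each). Its fast effect was 2.67 ± 0.26 log2 in DRF (adjusted p = 2.8e-10) and -0.83 ± 0.26 in NRF (adjusted p = 0.0322).

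**Figure D2:**
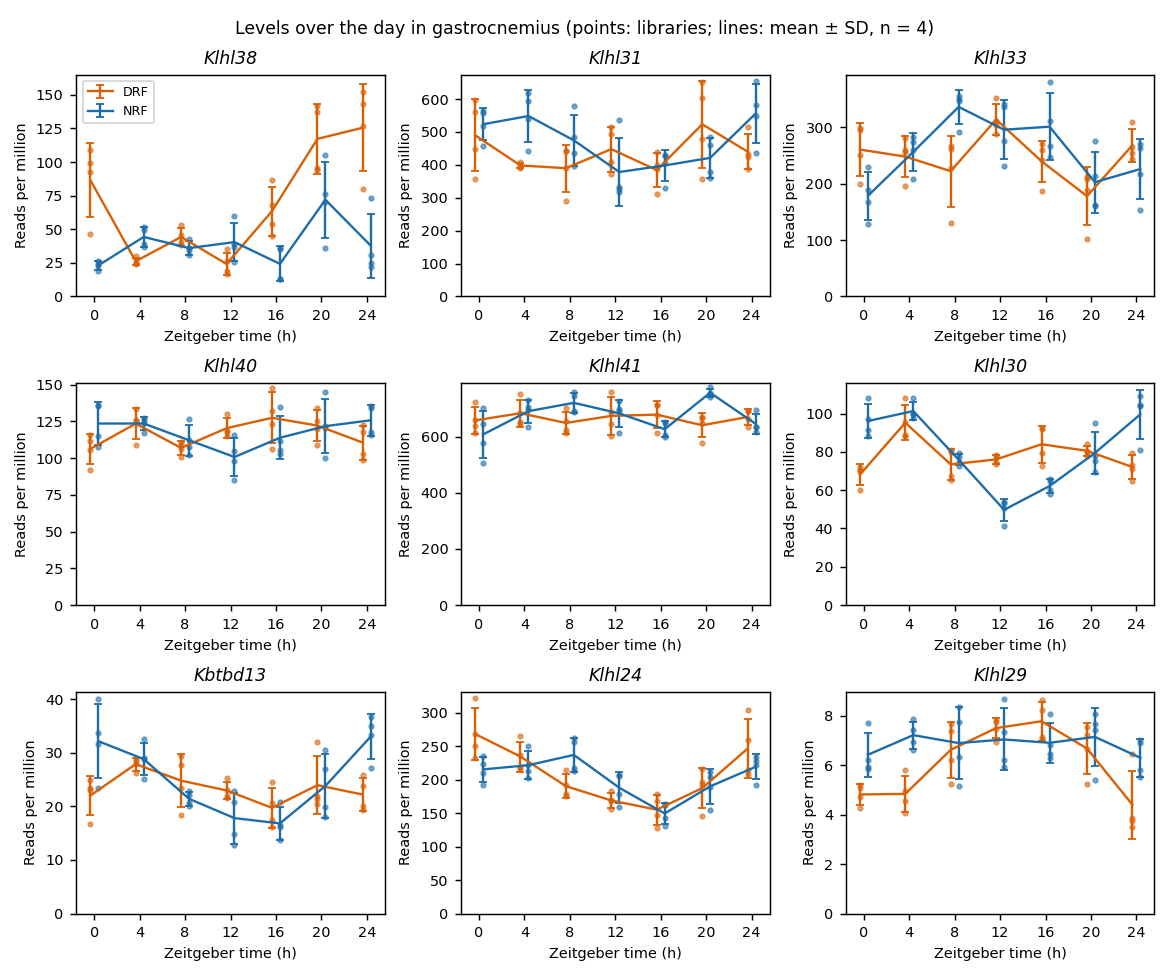
CPM of 9 members over ZT0 to ZT24, with a point for each library and a line through the group means, DRF and NRF in different colours. Klhl38 parts between regimens at ZT0, ZT16 and ZT24, Klhl30 and Kbtbd13 dip at ZT12 in NRF, and Klhl41 stays level.

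Klhl31, Klhl33 and Klhl40 differed between the end of the fast and the end of feeding in NRF, and did not pass in DRF. Klhl31, on chromosome 9 (gene 244923, 77636732 to 77660125), had 327, 318, 333 and 535 CPM at the end of the NRF fast. At the end of NRF feeding it had 557, 457, 563 and 517 CPM at ZT0 and 655, 438, 548 and 583 CPM at ZT24. The groups overlapped through 1 library at ZT12, and the other 3 were below every library at ZT0 and ZT24. Klhl31 fell by 0.54 ± 0.15 log2 at the end of the fast in NRF (adjusted p = 0.0119), and its fast effect in DRF was 0.05 ± 0.15 (adjusted p = 0.847). The difference was 0.58 ± 0.21 (adjusted p = 0.0417). Leaving out replicate 2, 3 or 1 of NRF ZT12 gave an adjusted p of 0.0690, 0.0595 or 0.0571 for the NRF fall, and the difference lost its call without any 1 of 12 libraries, with 0.0992 as the highest adjusted p. Its NRF rhythm passed in all 56 such fits, with a peak-to-trough of 0.59 ± 0.13 log2, a peak at ZT2.53 and an adjusted p of 0.00218. In DRF the peak-to-trough was 0.28 ± 0.13 (adjusted p = 0.171), and the difference between regimens was just outside the threshold (adjusted p = 0.0555).

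Klhl33, on chromosome 14 (gene 546611, 50888581 to 50897483), moved the other way in NRF. It had 335, 276, 231 and 341 CPM at the end of the NRF fast, against 128, 167, 229 and 189.5 CPM at ZT0 and 270, 263, 217 and 154 CPM at ZT24. The lowest ZT12 library lay within the range of the fed ones. Klhl33 rose by 0.57 ± 0.18 log2 at the end of the fast in NRF (adjusted p = 0.0326), and its fast effect in DRF was -0.26 ± 0.18 (adjusted p = 0.317). The 2 effects differed by -0.83 ± 0.25 (adjusted p = 0.0174). The NRF call was lost without any 1 of 6 libraries, with adjusted p up to 0.127 without replicate 4 of NRF ZT12, and that library also took the difference to 0.0523. The 24 h curve of Klhl33 in NRF peaked at ZT10.5, with a peak-to-trough of 0.79 ± 0.17 log2 (adjusted p = 0.0027), and its DRF curve had 0.26 (adjusted p = 0.465). The difference of its rhythm between regimens did not pass (adjusted p = 0.191).

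Klhl40, the stabiliser of nebulin and leiomodin-3, lies on chromosome 9 (gene 72330, 121777499 to 121791200). It had 97.9, 105, 85.0 and 116 CPM at the end of the NRF fast, against 136, 115, 136 and 107 CPM at ZT0 and 116, 118, 134 and 135 CPM at ZT24. These groups overlapped. Klhl40 fell by 0.31 ± 0.09 log2 at the end of the fast in NRF (adjusted p = 0.0187), and the same contrast in DRF was -0.15 ± 0.09 (adjusted p = 0.219). The difference between regimens was 0.15 log2 with a 95% interval of -0.09 to 0.40. Its NRF rhythm was small, with a peak-to-trough of 0.27 ± 0.08 log2 (adjusted p = 0.0304), and it differed from that in DRF (adjusted p = 0.0325). Without replicate 3 of NRF ZT12 the adjusted p was 0.120 for the NRF rhythm, 0.0684 for its difference and 0.163 for the fall, and the difference passed in 7 of 12 alternatives and in 48 of 56 fits without 1 library.

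Klhl41, on chromosome 2 (gene 228003, 69670120 to 69684239), passed none of these tests. Its lowest, median and highest values were 578, 661 and 762 CPM in DRF and 508, 692 and 778 CPM in NRF. The peak-to-trough was 0.02 log2 in DRF (adjusted p = 0.964) and 0.08 in NRF (adjusted p = 0.730). The average difference, DRF minus NRF, was -0.04 log2 with a 95% interval of -0.10 to 0.02. The highest group mean of Klhl41 was 1.07 times the lowest in DRF and 1.25 times in NRF, the narrowest spread in DRF among the muscle members.

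Klhl30 and Kbtbd13 had the largest NRF rhythms of the family. Klhl30, enriched in striated muscle, lies on chromosome 1 (gene 70788, 91351073 to 91362404). It had 50.7, 53.6, 41.2 and 53.4 CPM at the end of the NRF fast, against 88.1, 91.3, 108 and 96.9 CPM at ZT0 and 104, 80.9, 109 and 104 CPM at ZT24. Every fasted NRF library was below every fed one.
In DRF, Klhl30 had 71.8, 69.8, 59.8 and 70.7 CPM at ZT0 and 73.0, 79.5, 64.6 and 71.2 CPM at ZT24, at the end of the fast, against 78.2, 73.5, 74.6 and 77.9 CPM at the end of feeding. The DRF groups overlapped. Klhl30 fell by 0.96 ± 0.08 log2 at the end of the fast in NRF (adjusted p = 1.7e-12), and its fast effect in DRF was -0.12 ± 0.08 (adjusted p = 0.287), a difference of 0.84 ± 0.11 (adjusted p = 2.1e-07). Its 24 h curve had a peak-to-trough of 0.06 log2 in DRF (adjusted p = 0.805) and 0.93 ± 0.09 in NRF (adjusted p = 3.8e-11), with the NRF peak at ZT1.56, and the curves differed (adjusted p = 1.4e-06). DRF was below NRF by 0.49 log2 at ZT0 (adjusted p = 0.00255) and above it by 0.61 at ZT12 (adjusted p = 5.1e-04).

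Kbtbd13, which binds actin and whose human mutations cause nemaline myopathy, lies on chromosome 9 (gene 74492, 65388684 to 65391652). It had 22.8, 20.8, 12.8 and 14.8 CPM at the end of the NRF fast, against 23.4, 40.1, 31.6 and 33.8 CPM at ZT0 and 33.3, 35, 36.7 and 27.2 CPM at ZT24. All 4 fasted NRF libraries were below all 8 fed ones, the nearest being 22.8 and 23.4 CPM. Kbtbd13 fell by 0.86 ± 0.14 log2 at the end of the fast in NRF (adjusted p = 2.8e-05), and its fast effect in DRF was -0.06 ± 0.14 (adjusted p = 0.787). The difference was 0.79 ± 0.20 (adjusted p = 0.00393). Its rhythm had a peak-to-trough of 0.32 log2 in DRF (adjusted p = 0.110) and 0.96 ± 0.12 in NRF (adjusted p = 6.1e-08), with the NRF peak at ZT1.496, and the rhythms differed (adjusted p = 0.00132).

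**Figure D3:**
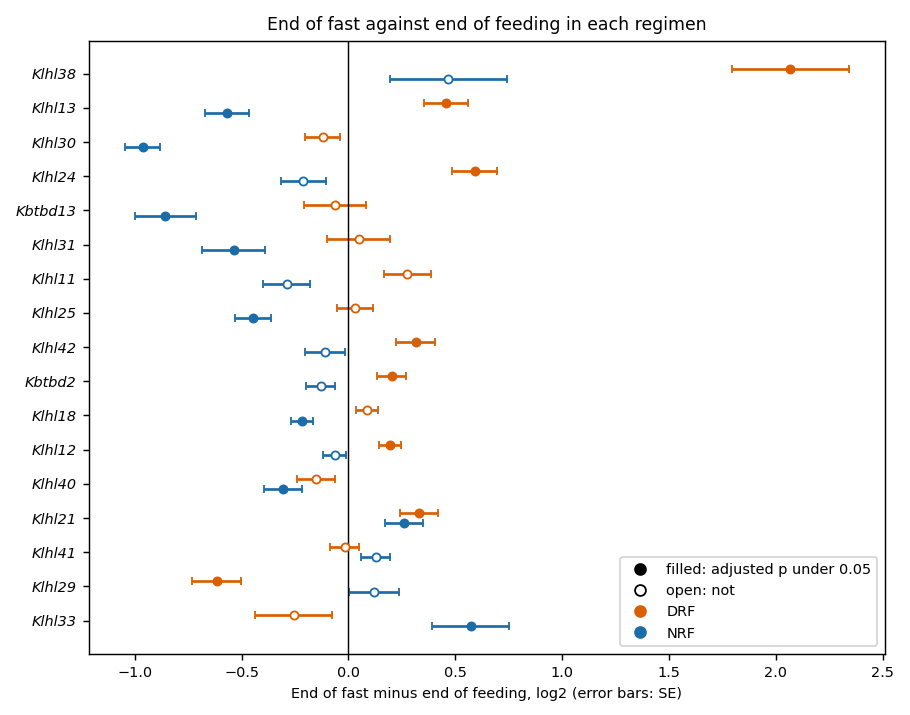
End of fast minus end of feeding in log2(CPM + 1), with its standard error, for 17 members in DRF (upper symbol) and NRF (lower symbol), filled where the adjusted p was under 0.05. Klhl38 reaches 2.07 in DRF, and Klhl30 and Kbtbd13 lie at -0.96 and -0.86 in NRF.

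Klhl24 had the smallest adjusted p among the DRF rhythms. KLHL24 directs keratin 14 to degradation in human skin, and its mutations cause skin and heart disease. It lies on chromosome 16 (gene 75785, 20097553 to 20129226). It had 322, 269, 250 and 232.5 CPM at ZT0 and 303, 208, 259 and 215 CPM at ZT24 in DRF, at the end of the fast, against 167.5, 183, 170 and 155.5 CPM at the end of DRF feeding. No DRF library at the end of the fast was as low as any at the end of feeding. In NRF it had 188 ± 23.0 CPM at the end of the fast (SD, n = 4), against 217 ± 17.6 CPM at the end of feeding (SD, n = 8). Klhl24 rose by 0.59 ± 0.11 log2 at the end of the fast in DRF (adjusted p = 5.4e-05), the NRF effect was -0.21 ± 0.11 (adjusted p = 0.236), and the difference was 0.80 ± 0.15 (adjusted p = 7.7e-05). Its 24 h rhythm passed in both regimens, with 0.72 ± 0.09 log2 in DRF (peak ZT2.0, adjusted p = 2.0e-07) and 0.56 ± 0.10 in NRF (peak ZT4.4, adjusted p = 1.4e-04).

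Klhl29 ran opposite to Klhl24 in DRF. It had 4.26, 5.22, 4.72 and 5.09 CPM at ZT0 and 3.77, 6.46, 3.505 and 3.88 CPM at ZT24 in DRF, against 7.83, 6.96, 7.48 and 7.76 CPM at ZT12. These DRF groups did not overlap. In NRF it had 7.05 ± 1.26 CPM at the end of the fast (SD, n = 4) and 6.37 ± 0.77 CPM at the end of feeding (SD, n = 8). Klhl29 fell by 0.62 ± 0.12 log2 at the end of the fast in DRF (adjusted p = 1.2e-04), the NRF effect was 0.12 ± 0.12 (adjusted p = 0.628), and the difference was -0.74 ± 0.16 (adjusted p = 9.3e-04). The rhythm had a peak-to-trough of 0.73 ± 0.10 log2 in DRF with its peak at ZT13.9 (adjusted p = 4.5e-07) and 0.08 in NRF (adjusted p = 0.845), and these differed (adjusted p = 0.00292).

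Klhl13, an Aurora B adaptor, was rhythmic in both regimens. It peaked at ZT1.07 in DRF with 0.45 ± 0.09 log2 (adjusted p = 3.0e-04) and at ZT1.79 in NRF with 0.60 ± 0.09 log2 (adjusted p = 4.7e-06), and the difference of the rhythms did not pass (adjusted p = 0.602). In DRF it had 8.42 ± 1.43 CPM at the end of the fast (SD, n = 8) and 5.82 ± 0.82 CPM at the end of feeding (SD, n = 4). In NRF it had 6.497 ± 1.17 CPM at the end of the fast (SD, n = 4) and 10.1 ± 1.33 CPM at the end of feeding (SD, n = 8). Its fast effect was 0.46 ± 0.10 log2 in DRF (adjusted p = 0.00103) and -0.57 ± 0.10 in NRF (adjusted p = 8.7e-05).

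The 24 h curves of Klhl21 and Klhl7 differed between regimens in a test that takes size and time together. Klhl21, the fourth highest member, had 241, 161, 216 and 255.5 CPM in DRF at ZT24, against 144, 150.1, 148 and 127 CPM in NRF. Every DRF library was above every NRF one, by 0.59 log2 on average (adjusted p = 2.3e-04). Its fitted peak was at ZT23.9 in DRF, with 0.27 ± 0.08 log2 (adjusted p = 0.0203), and at ZT13.2 in NRF, with 0.26 log2 (adjusted p = 0.0649), and the curves differed (adjusted p = 0.00482). Its 2 fast effects had one sign, 0.33 ± 0.09 log2 in DRF (adjusted p = 0.0056) and 0.26 ± 0.09 in NRF (adjusted p = 0.0485), and did not differ past the threshold (adjusted p = 0.726). The NRF value is at the edge of the threshold, since 35 of 56 fits without 1 library lost it, with 0.231 without replicate 2 of NRF ZT12. Without the ZT24 groups, the rhythm difference of Klhl21 had an adjusted p of 0.0755. Without replicate 4 or 1 of DRF ZT24, its DRF rhythm had an adjusted p of 0.0550 or 0.0524. Klhl7, which causes retinitis pigmentosa when mutated in humans, peaked at ZT7.8 in DRF with 0.40 ± 0.08 log2 (adjusted p = 7.4e-04). Its DRF group means ran between 59.0 ± 7.91 CPM at ZT20 and 78.7 ± 3.25 CPM at ZT12, its NRF means between 60.8 ± 6.81 CPM at ZT4 and 72.0 ± 10.7 CPM at ZT20 (SD, n = 4 each), and the rhythms differed (adjusted p = 0.00846), with 0.16 ± 0.08 log2 in NRF (adjusted p = 0.417).

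Kbtbd2, which controls the p85 alpha subunit of PI3-kinase and with it insulin signalling, rose by 0.20 ± 0.07 log2 at the end of the fast in DRF (adjusted p = 0.0275). It had 22.7 ± 2.22 CPM there (SD, n = 8), against 19.5 ± 1.01 CPM at the end of feeding (SD, n = 4), and the ranges of the 2 stages overlapped. Its fast effects differed between regimens by 0.33 ± 0.10 (adjusted p = 0.0105). The DRF rise was lost without any 1 of 5 libraries, with adjusted p up to 0.120 without replicate 1 of DRF ZT12. Pik3r1, the gene of that p85 alpha subunit, was rhythmic in both regimens. It peaked at ZT16.3 in DRF with 0.56 ± 0.19 log2 (adjusted p = 0.0399) and at ZT16.2 in NRF with 1.89 ± 0.19 (adjusted p = 2.0e-10). The difference in peak-to-trough was -1.33 ± 0.27, and the test that takes size and time together had an adjusted p of 0.00191.

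Across the tested members, the share that was rhythmic was near the background in DRF and above it in NRF. The family was proposed with its 24 h expression in these libraries known. This share, and the member shares in the comparisons that follow, are therefore a description and not a test of the family. In DRF 17 of 40 members were rhythmic (42.5%), against 48.7% of all genes, and in NRF 10 of 40 (25%), against 15.1%. Scaling by total reads turned the DRF order, with 25 of 40 members (62.5%) against 50.3% of all genes. Without the filter on low values, 17 members passed (42.5% of the 40), and 33.5% of the 17442 genes then fitted. Those genes include low ones of the kind that the 40 leave out, so these shares have unlike bases and no order is drawn from them. One of the 5 muscle members, Klhl38, and 16 of the 35 others passed in DRF, against 3 muscle members (Klhl31, Klhl33 and Klhl40) and 7 others in NRF. Klhl13 and Klhl24 passed in both regimens. The share of all genes passing in both is not given here, so no result about overlap is drawn. The median peak-to-trough of the members was 0.26 log2 in DRF and 0.19 in NRF, against 0.26 and 0.16 over all genes. Klhl4 (adjusted p = 0.0369) and Klhl11 (0.0663) lay on either side of the threshold in DRF. The DRF peaks of 13 of the 17 fell between ZT0 and ZT8 (76.5%), against 41.1% of all genes rhythmic in DRF, and the NRF peaks of 9 of the 10 fell between ZT21 and ZT5 (90%), against 39.0%. Both windows were chosen after the peaks were seen, so these shares are a description. Of the fast-fibre markers, 5 of 6 were rhythmic in DRF and 0 of 6 in NRF. Their sum ran from 80010 to 195300 CPM in DRF and from 75790 to 166300 CPM in NRF. In DRF the group mean of this sum was lowest at ZT0, 114700 CPM, and highest at ZT20, 165900 CPM. The part of these markers in the members' rhythms was not tested.

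**Figure D4:**
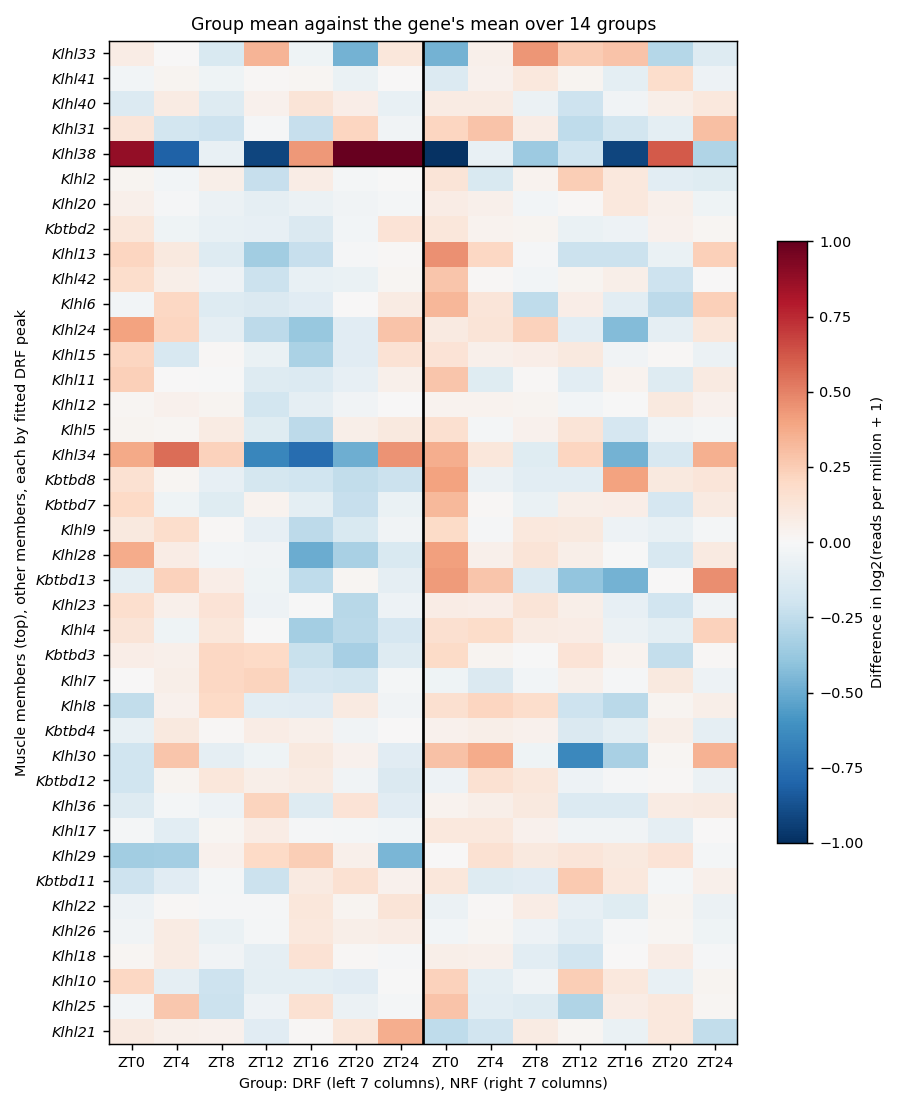
Group mean minus the gene's own mean in log2(CPM + 1), for the 40 tested members (rows, muscle members on top, each block ordered by fitted DRF peak) over 7 times in DRF (left) and 7 in NRF (right), with colour limited to -1 and 1. Klhl38 is the only row past 1, at ZT20 and ZT24 in DRF, and Klhl30 and Kbtbd13 are low at ZT12 and ZT16 in NRF.

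The rhythm differed between regimens for 7 of 40 members (17.5%), against 13.1% of all genes. The 7 were Klhl30, Kbtbd13, Klhl29, Klhl21, Klhl38, Klhl7 and Klhl40. By the sign of the difference in peak-to-trough, 4 were larger in DRF (Klhl38, Klhl29, Klhl7 and Klhl21) and 3 in NRF (Klhl30, Kbtbd13 and Klhl40). The same signs held for 9.06% and 4.07% of all genes. The test takes size and time together, so a call alone does not show a difference in size. For Klhl21 the difference in size was 0.00872 log2, and its sign turned under several alternatives. Averaged over the day, 3 of 40 members differed (7.5%), against 15.9% of all genes. Beside Klhl38, these were Kbtbd8 and Klhl20, both lower in DRF, where 7.53% of all genes were lower and 8.35% higher. Kbtbd8, which directs ribosome-assembly factors to modification, had 1.504, 3.15 and 4.80 CPM as the lowest, median and highest of 28 DRF libraries and 2.40, 3.90 and 5.67 CPM of 28 NRF libraries. It was lower by 0.21 ± 0.06 log2 (adjusted p = 0.0159) and by 0.62 at ZT16 (adjusted p = 0.0163). Without replicate 3 of DRF ZT16, the ZT16 difference had an adjusted p of 0.0974. Klhl20, an adaptor for DAPK1 and ULK1, was lower by 0.07 ± 0.03 log2 (adjusted p = 0.0417), and this was lost, with a value of 0.01 (adjusted p = 0.877), once each library's trend with gene length was removed. It was also lost without any 1 of 17 libraries, with adjusted p up to 0.0792. Red blood cell markers were higher in DRF in this same comparison, 5 of 5, with their sum at 262 to 1677 CPM in DRF and 185 to 754.5 CPM in NRF. None of these markers was at 0 throughout the 56 libraries, and their part in these differences was not tested.

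The fast effect passed for 11 of 40 members in DRF (27.5%), against 20.5% of all genes, and for 9 of 40 in NRF (22.5%), against 9.79%. In DRF 8 members rose at the end of the fast and 3 fell, against 11% and 9.52% of all genes. In NRF 2 rose, Klhl33 and Klhl21, and 7 fell, against 4.47% and 5.32%. The median effect of the members was 0.10 log2 in DRF and -0.10 in NRF, against 0.00 in each over all genes. The 8 that rose in DRF were Klhl38, Klhl24, Klhl13, Klhl21, Klhl12, Klhl42, Kbtbd2 and Klhl15, and the 3 that fell were Klhl29, Klhl36 and Kbtbd3. The 7 that fell in NRF were Klhl30, Kbtbd13, Klhl13, Klhl25, Klhl18, Klhl31 and Klhl40. Klhl42, Klhl36, Kbtbd3 and Klhl15 lost the DRF call without replicate 1 or 4 of DRF ZT12, with adjusted p of 0.0905 for Klhl42, 0.118 for Klhl36 and 0.228 for Klhl15 without replicate 1 and 0.126 for Kbtbd3 without replicate 4.

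The fast effect differed between regimens for 14 of 40 members (35%), against 19.2% of all genes. It was higher in DRF than in NRF for 12 and lower for Klhl29 and Klhl33, against 10.8% and 8.38% of all genes. Besides the members already described, the 14 held Klhl25, an adaptor for the translation repressor 4E-BP1, and Klhl18, an adaptor for Aurora A. Klhl25 had 4.28 ± 0.32 CPM at the end of the NRF fast (SD, n = 4), against 6.24 ± 0.94 CPM at the end of NRF feeding (SD, n = 8). Its effect was -0.45 ± 0.09 log2 in NRF (adjusted p = 2.2e-04) and differed from that in DRF by 0.48 ± 0.12 (adjusted p = 0.0036). Klhl18 had 14.1 ± 0.54 CPM at the end of the NRF fast (SD, n = 4), against 16.5 ± 0.79 CPM at the end of NRF feeding (SD, n = 8), with a difference between regimens of 0.30 ± 0.07 (adjusted p = 0.00246). Klhl12, an adaptor for the COPII coat protein SEC31, differed by 0.26 ± 0.08 (adjusted p = 0.0121), and Klhl42, an adaptor for katanin, by 0.43 ± 0.13 (adjusted p = 0.0177). The call for Klhl12 was lost, with an adjusted p of 0.125, once the trend with gene length was removed. That for Klhl42 was lost without replicate 4 of NRF ZT12 (adjusted p = 0.0645) or replicate 1 or 3 of DRF ZT12 (0.0625 or 0.0561). Klhl11 differed by 0.56 ± 0.16 (adjusted p = 0.00725), and few of its values were whole reads. Klhl31 (0.0417) and Kbtbd8 (0.0508) lay on either side of the threshold.

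Vessel and nerve markers differed between the end of the fast and the end of feeding, mostly in DRF. There, 4 of 5 endothelial, 4 of 4 smooth muscle and 3 of 5 Schwann cell markers were higher at the end of the fast. In NRF, 1 of 5, 1 of 4 and 0 of 5 of these passed. The effect was higher in DRF than in NRF for 4 of 5 endothelial and 3 of 4 smooth muscle markers. It differed for 0 of 5 Schwann cell, 2 of 5 macrophage, 1 of 5 fibroblast and matrix and 1 of 3 satellite cell markers. The endothelial sum was 286.5 to 457 CPM at the end of the fast in DRF, against 173 to 249 CPM at the end of DRF feeding. In NRF it was 205 to 354 CPM at the end of the fast, against 314 to 412 CPM at the end of feeding. The smooth muscle sum was 83.7 to 137 CPM at the end of the fast in DRF, against 59.5 to 69.5 CPM at the end of feeding, and the Schwann sum was 143 to 1080 CPM against 112 to 262 CPM. None of 6 slow-fibre genes passed for the fast effect. Their sum was 2992 to 8924 CPM at the end of the fast in DRF, against 1064 to 4915 CPM at the end of feeding. In NRF it was 873 to 7274 CPM at the end of the fast, against 1785 to 7598 CPM at the end of feeding. No such marker was at 0 throughout the 56 libraries, and their part in the members' fast effects was not tested.

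Compared at each time, few members differed between DRF and NRF. Beside those given for Klhl38, Klhl30, Klhl21 and Kbtbd8, the calls were Klhl30 at ZT16 (0.42 log2, adjusted p = 0.0109), Klhl25 at ZT4 (0.37 log2, adjusted p = 0.0482), Kbtbd4 at ZT12 (0.22, adjusted p = 0.0373) and Klhl22, a PLK1 adaptor, at ZT16 (0.24, adjusted p = 0.0214). At ZT24, Kbtbd13 (-0.55, adjusted p = 0.0371) and Klhl29 (-0.46, adjusted p = 0.0323) also passed, and Klhl30 was lower in DRF (-0.46, adjusted p = 0.0018). The number called was 2 of 40 at ZT0, 1 at ZT4, 0 at ZT8, 2 at ZT12, 4 at ZT16, 0 at ZT20 and 5 at ZT24. Of all genes, 1.85%, 0.973%, 0.208%, 3.5%, 10.8%, 2.96% and 5.56% passed at these times in the same order. The share of all genes that was higher in DRF was 0.674% at ZT4, 2.15% at ZT12 and 4.02% at ZT16, and the share that was lower was 1.36% at ZT12, 6.74% at ZT16, 2.25% at ZT20 and 2.06% at ZT24. In limma 4 members at ZT8 and 5 at ZT20 had an unadjusted p under 0.05, and none of them passed after adjustment. The share of all genes with such a p is not given here, so no result is drawn from these counts. Removing 1 library ended the calls of Klhl25 (40 of 56 fits, adjusted p up to 0.157), Kbtbd4 (5 fits, up to 0.227 without replicate 3 of NRF ZT12), Klhl22 (3 fits, up to 0.0959 without replicate 3 of DRF ZT16), Kbtbd13 (5 fits, up to 0.120) and Klhl29 (5 fits, up to 0.123). Without replicate 3 of DRF ZT16, Klhl30 at ZT16 had an adjusted p of 0.0586.

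Klhl34 followed the transcript levels of the 6 slow-fibre genes, Myh2 among them, and fibre content itself was not measured. It lies on chromosome X (gene 245683, 157818435 to 157821060), and its lowest, median and highest values were 0.953, 14.1 and 32.0 CPM in DRF and 2.96, 16.2 and 26.8 CPM in NRF. Within 1 group, DRF ZT20, it had 22.8, 0.953, 5.6 and 7.8 CPM. Over the 56 libraries, its log2 value followed a score of the 6 slow-fibre genes with Pearson's r of 0.927 and Spearman's rho of 0.897 (permutation test, adjusted p = 1.3e-04 and 8e-05 over 40 relations, from a raw p of 1e-05, the smallest these permutations can give). The r was 0.911 without the 2 libraries farthest from the median score, 0.933 after the group means were taken out, 0.920 within DRF and 0.941 within NRF. Its DRF peak-to-trough was 1.74 ± 0.47 log2 (peak ZT3.5, adjusted p = 0.0070), and 0.80 ± 0.18 (adjusted p = 0.00159) with the score as a covariate, an alternative chosen after seeing the data. In NRF it was 0.78 (adjusted p = 0.456), and the rhythms did not differ past the threshold (adjusted p = 0.456, or 0.146 with the covariate).

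**Figure D5:**
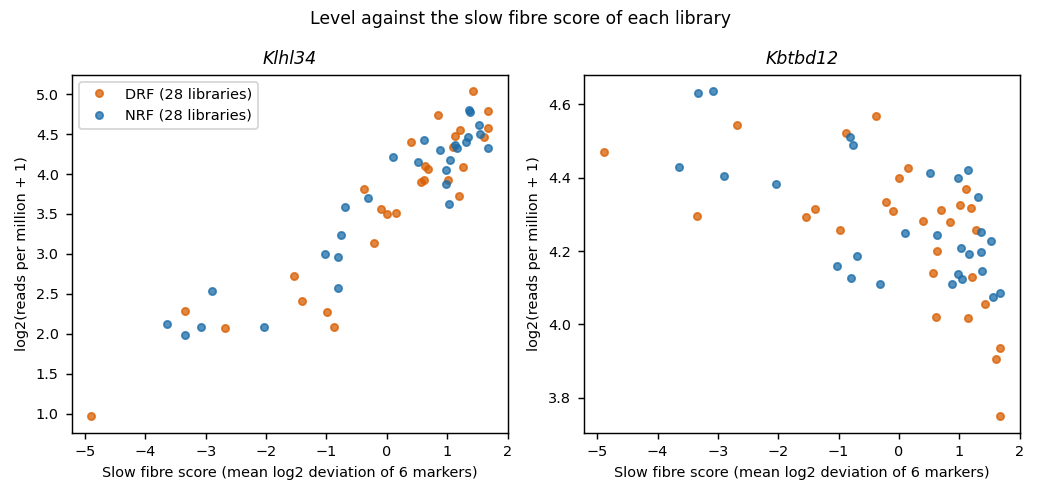
log2(CPM + 1) of Klhl34 and Kbtbd12 against the slow-fibre score of each of 56 libraries, DRF and NRF in different colours. Klhl34 rises with the score, with r of 0.927, and Kbtbd12 falls, with r of -0.605.

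In all, 9 of the 40 members followed the slow-fibre score past an adjusted p of 0.05 by Pearson's r, 5 with positive r and 4 with negative, and 11 did by Spearman's rho, with Klhl42 and Klhl2 added. The smallest absolute r among the 9 was 0.365, and 32.8% of all genes had one at least as large, against 22.5% of the members. Klhl6 (r = 0.646) and Kbtbd13 (r = 0.525) were positive, and Kbtbd12 (r = -0.605, rho = -0.613), Klhl29 (r = -0.582) and Klhl31 (r = -0.431) were negative, each by the same permutation test. Kbtbd12, on chromosome 6 (gene 74589, 88545079 to 88627691), held 15.9 ± 1.38 CPM at ZT0 and 19.9 ± 3.33 CPM at ZT8 in DRF (SD, n = 4 each). Its DRF rhythm had a peak-to-trough of 0.26 ± 0.09 log2 (adjusted p = 0.0310) and was lost without any 1 of 6 DRF libraries, with adjusted p up to 0.0632. The same limma call was lost without the ZT0 groups (adjusted p = 0.160), without the ZT24 groups (0.0886) and with 12 h terms added (0.0596). With the score as a covariate, Klhl31 had 0.37 ± 0.09 log2 in DRF (adjusted p = 0.00234) and 0.74 ± 0.09 in NRF (adjusted p = 2.5e-08), and its rhythms then differed (adjusted p = 0.0118). The fast effects of Klhl31 then differed by 0.93 ± 0.15 (adjusted p = 6.5e-06), Kbtbd13 had a difference of 0.52 ± 0.17 (adjusted p = 0.0308) and Klhl38 of 1.41 ± 0.40 (adjusted p = 0.01001).

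Of the ligase machinery that the family shares, 24 genes were tested. Of these genes of the CUL3 scaffold, the NEDD8 cycle that switches it on and the COP9 signalosome that switches it off, 19 were rhythmic in DRF (79.2%, against 48.7% of all genes) and 1 in NRF (4.17%, against 15.1%). The rhythm differed for 4 (16.7%), near the 13.1% of all genes. At the end of the fast in DRF 1 rose and 10 fell (45.8% in all, against 20.5% of all genes), with a median of -0.21 log2, against 0.00 over all genes. Cand2, a substrate-receptor exchange factor of muscle, fell by 0.52 ± 0.09 log2 (adjusted p = 3.0e-05). Dcun1d3, a neddylation factor, fell by 0.31 ± 0.07 (adjusted p = 0.0010), and its rhythm differed between regimens with a peak at ZT9.97 in DRF and ZT18.9 in NRF (adjusted p = 1.9e-04). Dcun1d4 (adjusted p = 0.01103) and Senp8 (adjusted p = 0.0374) also differed in rhythm. Cul3 itself had a DRF peak-to-trough of 0.52 ± 0.18 log2 (adjusted p = 0.0413) and 0.12 in NRF (adjusted p = 0.884), with no difference past the threshold (adjusted p = 0.382).

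Among 19 tested BTB adaptors of CUL3 outside the family, 8 were rhythmic in DRF (42.1%, below the 48.7% of all genes) and 0 in NRF, against 15.1%. Kctd6 (adjusted p = 0.00334), Rhobtb2 (adjusted p = 0.0116) and Kctd13 (adjusted p = 0.0138) differed in rhythm. Rhobtb2 fell by 0.53 ± 0.09 log2 at the end of the fast in DRF (adjusted p = 2.6e-05). Of 16 thin filament and nemaline myopathy genes, 10 were rhythmic in DRF (62.5%, against 48.7% of all genes), and by limma 0 were rhythmic in NRF and 0 differed. Lmod3, encoding the leiomodin-3 that KLHL40 protects, had 0.78 ± 0.14 log2 in DRF (adjusted p = 7.5e-05), 0.19 ± 0.14 in NRF (adjusted p = 0.642) and a difference just outside the threshold (adjusted p = 0.0556). Flnc, encoding the filamin-C tied to Klhl31 in mice, was also just outside it (adjusted p = 0.0566), and nebulin (Neb) had 0.48 ± 0.19 in DRF (adjusted p = 0.0951).
Of 15 tested genes of reported substrates, 8 were rhythmic in DRF (53.3%, near the 48.7% of all genes), 6 in NRF (40%, against 15.1%) and 7 differed (46.7%, against 13.1%). Ulk1, encoding an autophagy kinase that KLHL20 targets, rose by 0.79 ± 0.09 log2 at the end of the fast in DRF (adjusted p = 2.4e-08), and its rhythm of 0.73 ± 0.09 log2 in DRF differed from the 0.21 ± 0.10 of NRF (adjusted p = 0.0034). Nfe2l2 encodes the stress factor NRF2, a substrate of KEAP1, a Kelch-like protein whose gene symbol is outside the rule used for members. Nfe2l2 differed in rhythm with peaks at ZT22.4 in DRF and ZT14.1 in NRF (adjusted p = 0.00319). These are transcript levels, and the proteins that the family controls were not measured.

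The authors' deposited table of rhythm results listed 43 members. Of these, 8 passed in the authors' deposited table in DRF (18.6%), against 15.9% of all its genes, and 7 in NRF (16.3%), against 7.16%. The authors' deposited table gave Klhl38 a q-value of 0.00125 in DRF and 1 in NRF, and Klhl30 a q-value of 1 in DRF and 1.7e-06 in NRF.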

How the data were processed

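RNA of mouse gastrocnemius was sequenced as polyA libraries, paired end on BGISEQ-500, per the labels' protocols, with HISAT2, Bowtie2, RSEM and mm10 (GRCm38.p6) named in the submitters' processing notes; sources used here give neither roles nor versions. A table named TPM was deposited, whose values are a score: they fit log2(1 + CPM) divided by gene length and scaled to one sum in every library. Whole reads at low levels fixed this form, and it was inverted to CPM for 17442 of 19072 genes, with 209 levels whole within 0.02. Libraries held 28172967 to 36183381 recovered reads. The authors' deposited rhythm tables hold p-values and q-values, and their regimen was read from the names in them.

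limma 3.58.1 in R 4.3.3 was fitted on log2(CPM + 1) over all 56 libraries for 12024 genes averaging at least 1 CPM, with Benjamini-Hochberg adjustment and a threshold of 0.05. The 24 h rhythm was a cosine fit, and other contrasts used group means. The pseudocount understates changes of low genes. Labels number replicates 1 to 4 and do not say more of their source, so p-values measure the spread between these samples, which may be technical. Over 28 same-numbered pairs the correlation of deviations ran from -0.573 to 0.594, with 15 over 0.1, which shows no consistent pairing, so no block was used in the reported fits.

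The members and gene lists were chosen with earlier results of these data known. Genes named were the 5 muscle members, all members past the threshold in the rhythm difference, the average or the fast difference, the 3 others with the largest rhythm in each regimen, the 3 highest others, Kbtbd13, Kbtbd12, Kbtbd2, Klhl24 and Klhl3, and up to 4 genes of each list; other members were named after their values were seen. The scripts were tested on simulated data.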

Additional observations from a re-analysis of the deposited data

Results flagged for a closer look

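In groups of 4 libraries of 11 members, 154 in all, 8 had a sample far from the other 3, where chance flags about 1 in 20. These were Klhl31 at 535.2 CPM in NRF ZT12, Klhl33 at 292 CPM in NRF ZT8, Klhl38 at 29.77 CPM in DRF ZT4 and Klhl30 at 59.82 CPM in DRF ZT0. The others were Kbtbd13 at 32.07 CPM in DRF ZT20, Klhl29 at 6.458 CPM in DRF ZT24, and Klhl34 at 26.7 CPM in DRF ZT0 and at 10.37 CPM in DRF ZT24.

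The 24 h rhythm differed between DRF and NRF for 7 members, with peak-to-trough differences, DRF minus NRF, of 2.05 log2 for Klhl38, 0.65 for Klhl29, 0.24 for Klhl7, 0.00872 for Klhl21, -0.11 for Klhl40, -0.64 for Kbtbd13 and -0.87 for Klhl30. The fast effect was higher in DRF by 1.60 log2 for Klhl38, 1.03 for Klhl13, 0.84 for Klhl30, 0.80 for Klhl24, 0.79 for Kbtbd13 and 0.58 for Klhl31. It was also higher by 0.56 for Klhl11, 0.48 for Klhl25, 0.43 for Klhl42, 0.33 for Kbtbd2, 0.30 for Klhl18 and 0.26 for Klhl12, and differed by -0.74 for Klhl29 and -0.83 for Klhl33.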

How the results depend on the processing

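Members called in the average were 3 (15.9% of all genes passed), against 5 on log2 of the deposited score (11.6%) and with the length trend removed (8.54%), 16 with total-count scaling (29.1%), 7 with library weights (22.4%) and 8 with the slow-fibre score (21.9%). Library weights gave 19 in the DRF fast effect (37.5% of all genes), 9 at ZT0 (8.92%), 4 at ZT4 (4.42%), 5 at ZT12 (11.3%) and 7 at ZT16 (20.7%). Total-count scaling gave 25 for the DRF rhythm (50.3%), 6 at ZT0 (4.42%) and 8 at ZT16 (16.9%). The slow-fibre score, added after seeing the data, gave 5 at ZT0 (3.29%). At ZT4 the count was 0 on log2 of the deposited score (0.665% of all genes) and with a pseudocount of 0.1 (0.965%). It was also 0 with no filter (0.591%), quantile scaling (0.823%) or the replicate block (0.873%). At ZT20 it was 1 on log2 of the deposited score (4.29%), with the length trend removed (1.01%) or with the slow-fibre score (10.3%). Fits without 1 library gave 14 to 18 for the DRF rhythm, 9 to 12 for NRF, 6 to 9 for their difference, 2 to 9 for the average, 7 to 12 for the DRF fast effect, 5 to 10 for NRF and 12 to 16 for their difference. By time they gave 2 to 3 at ZT0, 0 to 2 at ZT4, 1 to 4 at ZT12, 1 to 5 at ZT16, 0 to 2 at ZT20 and 3 to 7 at ZT24. The Klhl21 rhythm difference of 0.00872 was -0.0246 with weights, -0.00815 with the length trend removed, -0.0563 without ZT24, -0.0780 with the slow-fibre score and -0.0397 to 0.0405 without 1 library, and the Klhl20 average was 0.00808 with the length trend removed. Total-count scaling moved the median of all genes by -0.07 in the average and 0.11 in the DRF fast effect. The replicate block gave 8 calls in the NRF fast effect (9.47% of all genes), against 9 (9.79%). The causes were not tested. Members near 1 CPM rest on few reads, with 16 as the lowest for Klhl6.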
